A study of Homo sapiens with 24 samples.

Results

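The 39 genes described here encode parts of the centromere and the kinetochore, the structure by which a chromosome is held to the spindle during cell division. They were chosen by name, from the subunits of the inner centromere, the outer kinetochore and the spindle checkpoint, and all 39 were found by their Ensembl identifiers among the 14585 genes of the deposited table. No cut on measured values was used to choose them, but the list was written with earlier results of these data known. By role the list holds 14 genes of the inner centromere, 3 genes that load the centromeric histone, 10 genes of the KMN network of the outer kinetochore, 3 of the SKA complex, 4 of the fibrous corona, 4 of the spindle checkpoint, and CENPJ, a centriolar protein whose symbol belongs to the same series of names. RNA was sequenced from A549, a human lung carcinoma line, and from Huh7, a human hepatocellular carcinoma line, both labelled wild type. The label does not cover p53, since the authors describe A549 as wild type for p53 and Huh7 as mutant. In each line 3 libraries came from control cells and 3 each from cells given an extract of Pulsatilla chinensis, Bupleurum chinense or Polyporus umbellatus, which made 8 groups and 24 libraries. The extracts were dried and dissolved in DMSO. Whether the control cells received DMSO, and the dose and time used for sequencing, were not given in the sources used here. Each tumour type was represented by 1 cell line, and the labels do not say whether replicates came from separate cultures, so that p-values measure the spread between these libraries.

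A centromere is marked by nucleosomes that carry the histone H3 variant CENP-A, which HJURP and the Mis18 complex deposit after mitosis. On these nucleosomes sits the constitutive centromere associated network (CCAN), which is present through the cell cycle and which recruits the KMN network (the KNL1, MIS12 and NDC80 complexes) when cells enter mitosis. The NDC80 complex binds microtubules, the SKA complex and the corona strengthen and guide that attachment, and the checkpoint proteins delay anaphase until each kinetochore is attached. Many of these mRNAs are made mainly in G2 and M phase, so that they are known as markers of dividing cells. In RNA from a whole culture, fewer cells in division and less mRNA per cell cannot be told apart.

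The libraries held between 6803704 and 24345541 estimated counts, with a median of 10515192. The highest totals lay in Huh7 control (up to 24345541) and Huh7 P. chinensis libraries (up to 24340250), and those of Huh7 P. umbellatus lay between 7182444 and 10328734. ALB and AFP, which mark hepatocytes, lay at 2892 CPM or more and at 1915 CPM or more in each Huh7 library and at 0.710 CPM or less and 0.287 CPM or less in A549, while KRT7 and KRT81 were at 1498 CPM or more and at 2207 CPM or more in A549 and at 0.131 CPM or less and 0.598 CPM or less in Huh7. HNF4A, a liver transcription factor, was also present in A549, at 44.5 to 121 CPM, below the 288 CPM or more of Huh7. SFTPB, a surfactant gene of the lung, was low in both lines, at 0.990 to 2.73 CPM in A549 and 2.13 to 5.27 CPM in Huh7, and KRT8, of the same list, overlapped between the lines, at 3205 to 3780 CPM and 1345 to 3862 CPM. The list of lung and A549 markers held 7 genes, of which NKX2-1, SFTPC and NAPSA were absent from the deposited table. Of the 4 present, KRT7 and KRT81 thus separated the lines in the direction of the labels. The median squared difference between the counts of 2 replicates, over that from sampling alone, was at most 5.79 in 22 pairs of replicates. It was 15.6 and 20.9 in the pairs with replicate 2 of Huh7 P. umbellatus, which thus stood apart. Counts with and without that library are therefore given below where they rest on it.

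Levels are given as CPM, counts scaled to library size, after TMM normalization within a line, in the order of replicates 1, 2 and 3. Changes are log2 fold changes with their standard errors (SE), on a scale where 0 is no change, and a gene was taken as changed where the Benjamini-Hochberg adjusted p of edgeR's quasi-likelihood test over all genes of the line was below 0.05. Compared per kilobase of the canonical transcript, the mean level in A549 control cells was highest for HJURP, at 118 CPM per kb, followed by PMF1 at 53.9 and CENPF at 38.2, and lowest for CENPC at 1.61. In Huh7 control cells PMF1 led with 66.8 CPM per kb, NDC80 followed with 39.2, HJURP ranked 8 of the 39 with 29.2, and CENPT was lowest with 2.42. These levels describe the controls and were not tested between lines, which were normalized separately.

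In A549 cells almost the whole list fell with each extract. Summed over the 39 genes, the level was 2824 to 2895 CPM in the control libraries, 1229 to 1366 with P. chinensis, 1430 to 1567 after B. chinense and 1542 to 1613 after P. umbellatus. All treated libraries thus lay below all controls, with P. chinensis lowest. With P. chinensis 37 of the 39 genes fell and 0 rose, where 17.1% of the 13633 genes tested in A549 fell and 15.8% rose. The median log2 fold change of the members was -1.25, and that of all genes tested was 0.01. With B. chinense 35 fell and 0 rose, with a median of -1.01, against a background of 15% of all genes falling and 13.1% rising. With P. umbellatus 36 fell and 0 rose, with a median of -0.91, against 14.8% and 13.4%. The 3 comparisons share their control libraries. For 38 of 39 members with each extract, all 3 treated libraries lay below all 3 control libraries, which was so for 22.6%, 21.4% and 21.7% of all genes tested for P. chinensis, B. chinense and P. umbellatus. All treated libraries lay above all controls for 0 members, against 22.6%, 19.1% and 19.9% of all genes. The counts of fallen members moved little when a library was left out, ranging from 35 to 38, from 32 to 36 and from 33 to 36.

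**Figure D1:**
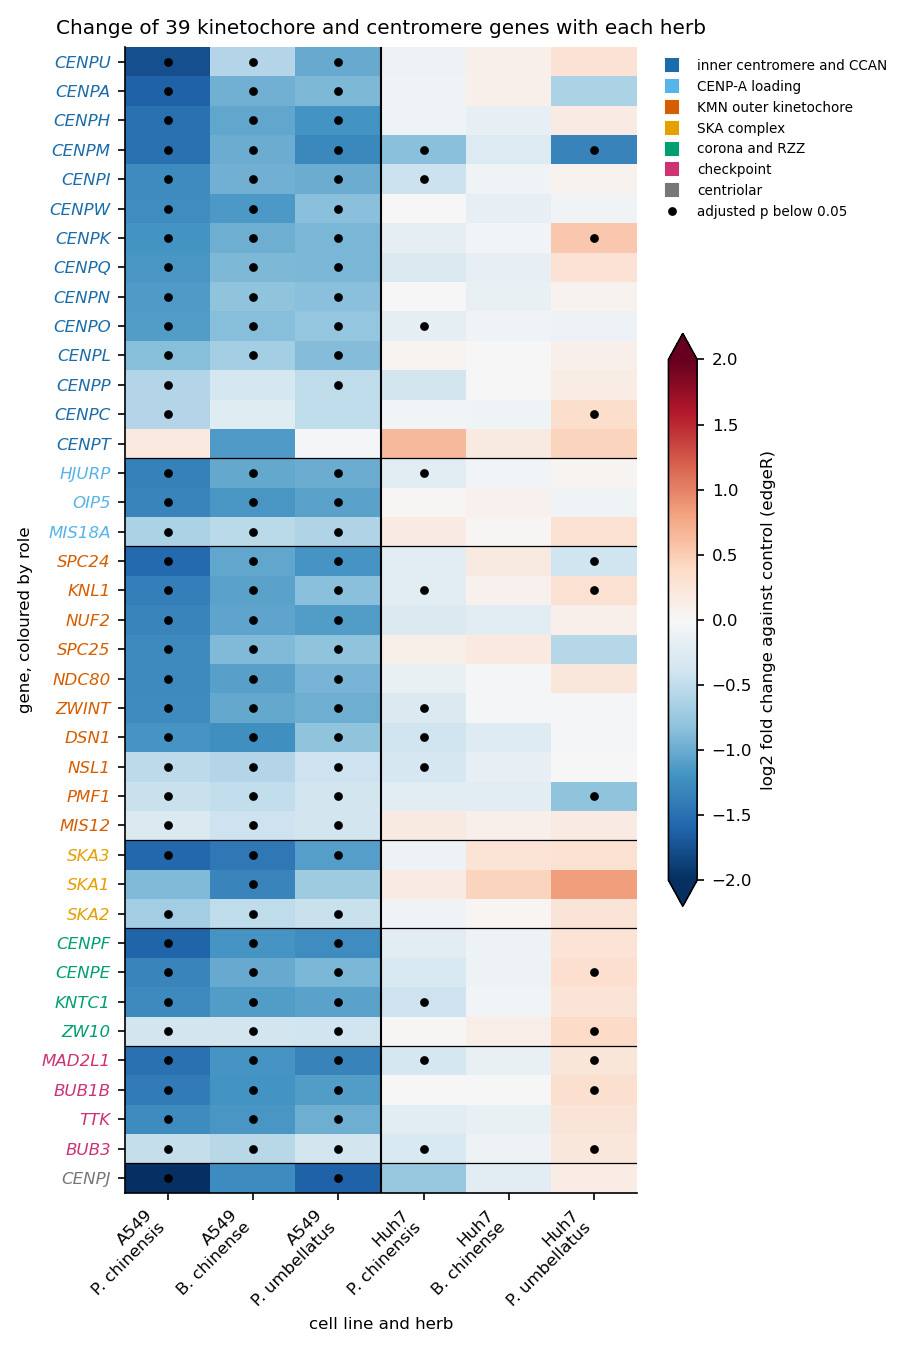
Log2 fold change against control of the 39 genes (rows, grouped and coloured by role) with each extract in each line (columns), with colour from blue (lower) to red (higher) and a black dot where the adjusted p was below 0.05. The A549 columns are blue with dots for 37, 35 and 36 genes, and the Huh7 columns are pale, with dots for 11, 0 and 11 genes.

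Because the members moved together in A549, their promoters were searched for 3 short motifs that are known from genes of the cell cycle. These are the CHR element (TTTGAA or TTCGAA), which binds the MuvB complexes, the CCAAT box (CCAAT), which binds NF-Y, and E2F sites (the strings TTCCCGC and TTGGCGC as well as TTCGCGC and also TTGCCGC). Windows ran from 250 bases before to 50 bases after the start of transcription, were read on both strands, and came from RefSeq on GRCh38.p14, in which 30 of the 39 members had an entry. A CHR string was present in 17 of 30 promoters (56.7%), against 11.4% of the 11060 promoters of genes tested in A549 and 16.6% of all 27305 promoters. A CCAAT box was present in 18 of 30 (60%, against 36.6% and 35.7%), and an E2F string in 14 of 30 (46.7%, against 20.3% and 13.1%). Matches of different motifs shared letters in 2 members, PMF1 and ZW10. The presence of a motif went with little difference in the size of the change with P. chinensis in A549. The median log2 fold change was -1.27 for the 17 members with a CHR string and -1.16 for the 13 without, and it was -1.25 with and -1.21 without a CCAAT box. A match is a run of letters and not a measured site of binding. The 5 promoters that follow are printed 5′ to 3′, with the matched letters in capitals and the rest in lower case. CENPA (chr2:26785806-26786105, plus strand) is shown for the histone that marks the centromere, SPC24 (chr19:11155733-11156032, minus strand), MAD2L1 (chr4:120066799-120067098, minus strand) and HJURP (chr2:233854486-233854785, minus strand) for the largest falls with P. chinensis among members of the KMN network, the checkpoint and CENP-A loading whose promoter held a match, and CENPT (chr16:67847644-67847943, minus strand) for the smallest change.
CENPA: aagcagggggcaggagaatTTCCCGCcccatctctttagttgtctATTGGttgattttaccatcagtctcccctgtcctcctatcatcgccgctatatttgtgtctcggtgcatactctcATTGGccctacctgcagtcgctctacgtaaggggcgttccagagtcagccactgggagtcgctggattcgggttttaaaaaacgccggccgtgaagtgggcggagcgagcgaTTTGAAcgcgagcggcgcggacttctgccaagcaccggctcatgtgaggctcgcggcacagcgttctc
SPC24: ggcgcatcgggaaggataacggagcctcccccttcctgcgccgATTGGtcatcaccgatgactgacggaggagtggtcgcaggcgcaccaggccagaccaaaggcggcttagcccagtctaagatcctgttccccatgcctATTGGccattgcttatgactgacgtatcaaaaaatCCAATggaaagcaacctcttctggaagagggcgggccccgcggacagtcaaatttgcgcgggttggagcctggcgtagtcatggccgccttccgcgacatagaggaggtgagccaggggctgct
MAD2L1: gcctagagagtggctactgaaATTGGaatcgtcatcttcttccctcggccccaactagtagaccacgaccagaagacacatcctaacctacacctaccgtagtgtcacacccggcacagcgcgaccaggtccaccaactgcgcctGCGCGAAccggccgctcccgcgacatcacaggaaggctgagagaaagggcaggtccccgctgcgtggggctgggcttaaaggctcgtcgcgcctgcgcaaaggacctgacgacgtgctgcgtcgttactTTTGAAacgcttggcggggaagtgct
HJURP: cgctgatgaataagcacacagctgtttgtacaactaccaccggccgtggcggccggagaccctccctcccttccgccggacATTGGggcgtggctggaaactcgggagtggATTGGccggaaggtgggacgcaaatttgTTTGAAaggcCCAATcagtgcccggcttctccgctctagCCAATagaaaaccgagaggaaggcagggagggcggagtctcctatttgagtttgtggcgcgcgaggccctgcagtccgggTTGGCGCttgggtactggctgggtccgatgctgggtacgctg
CENPT: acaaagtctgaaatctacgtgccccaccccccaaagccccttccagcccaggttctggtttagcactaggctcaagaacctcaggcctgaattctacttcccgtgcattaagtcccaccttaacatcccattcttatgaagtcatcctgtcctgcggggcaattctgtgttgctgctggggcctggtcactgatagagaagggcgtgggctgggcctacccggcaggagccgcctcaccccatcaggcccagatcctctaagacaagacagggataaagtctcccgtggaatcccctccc
The promoters of CENPA, MAD2L1 and HJURP held all 3 kinds of motif, that of SPC24 held 3 CCAAT boxes and no other match, and none of the searched strings was found in the CENPT window.

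CENPA, which encodes the centromeric histone, fell with each extract in A549, and with P. chinensis it was among the members that fell most. Its levels were 51.7, 41.0 and 45.9 in control, 15.8, 18.9 and 10.1 with P. chinensis, 23.9, 23.1 and 23.4 after B. chinense and 21.0, 25.6 and 27.9 after P. umbellatus. All 9 treated libraries lay below the 3 controls, and those with P. chinensis were the lowest. The log2 fold change was -1.62 ± 0.18 (SE, adjusted p = 6.77e-06) with P. chinensis, which is 0.325 times the control level, -0.97 ± 0.17 (adjusted p = 0.000739) after B. chinense and -0.90 ± 0.17 (adjusted p = 0.0011) after P. umbellatus. Part of the annotated exons of CENPA overlap those of SLC35F6 on the same strand, and how the estimated counts divide between them was not tested.

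Around this histone, 13 of the 14 inner centromere genes fell with P. chinensis in A549, 11 after B. chinense and 12 after P. umbellatus, with medians of -1.17, -0.93 and -0.88. CENPO, a CCAN subunit, stood at 138, 133 and 149 in control, 67.1, 63.8 and 61.8 with P. chinensis, 78.5, 73.1 and 81.0 after B. chinense and 76.7, 85.5 and 82.3 after P. umbellatus. CENPN, the subunit that reads the CENP-A nucleosome directly, stood at 103, 103 and 104 in control, 45.8, 45.8 and 49.9 with P. chinensis, 63.3, 52.6 and 60.9 after B. chinense and 50.9, 63.5 and 58.6 after P. umbellatus. In both genes the treated libraries lay below all controls, with a log2 fold change with P. chinensis of -1.12 ± 0.07 (adjusted p = 1.42e-08) for CENPO and -1.13 ± 0.09 (adjusted p = 2.22e-07) for CENPN. CENPK, which joins CENPH and CENPI in a CCAN subcomplex, fell from 51.9, 44.6 and 49.1 to 20.7, 20.9 and 21.8 CPM with P. chinensis, 28.1, 22.2 and 22.9 after B. chinense and 23.4, 25.7 and 27.8 after P. umbellatus. With P. chinensis the largest fall of the group was that of CENPU, at -1.75 ± 0.20, while the change of this subunit was -0.59 ± 0.19 after B. chinense and -1.01 ± 0.19 after P. umbellatus.

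Within the CCAN, CENPC and CENPT, the proteins that link the centromere to the outer kinetochore, did not pass the test with each extract. CENPC stood at 12.2, 9.93 and 10.8 in control, 7.84, 7.49 and 6.29 with P. chinensis, 11.6, 8.64 and 7.16 after B. chinense and 7.93, 7.55 and 7.44 after P. umbellatus. With P. chinensis and P. umbellatus its libraries lay below the controls, and with B. chinense they overlapped them. Its log2 fold change was -0.59 ± 0.19 (adjusted p = 0.0247) with P. chinensis, a call that was lost without P. chinensis replicate 2 or 3 or control replicate 1 or 3 (adjusted p from 0.0513 to 0.0936), -0.25 ± 0.19 (adjusted p = 0.359) after B. chinense and -0.50 ± 0.18 (adjusted p = 0.0548) after P. umbellatus. CENPT was measured at low levels, at 5.70, 10.03 and 8.87 in control, 7.14, 13.8 and 7.40 with P. chinensis, 4.74, 5.18 and 0.731 after B. chinense and 10.1, 7.37 and 6.1998 after P. umbellatus. Its libraries scattered widely within each group. The log2 fold change of 0.19 ± 0.41 with P. chinensis did not pass the test (adjusted p = 0.768), nor did those with B. chinense (-1.13 ± 0.44, adjusted p = 0.0709) or P. umbellatus (-0.05 ± 0.41, adjusted p = 0.954). Exons of CENPT overlap NUTF2 and THAP11 on the opposite strand.

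The genes that load CENP-A all fell with each extract in A549. HJURP, the chaperone that carries CENP-A to the centromere, stood at 379, 365 and 371 in control, 150.1, 154 and 133 with P. chinensis, 172, 176 and 202 after B. chinense and 187, 176 and 200.005 after P. umbellatus. Its groups were tight, and all treated libraries lay far below the controls. The log2 fold change was -1.35 ± 0.07 (adjusted p = 3.83e-09) with P. chinensis, -1.02 ± 0.07 after B. chinense and -0.99 ± 0.07 after P. umbellatus. OIP5, a Mis18 complex subunit also known as Mis18 beta, changed by -1.32 ± 0.19, -1.17 ± 0.19 and -1.08 ± 0.18 in the same order, and its partner MIS18A by -0.64 ± 0.15, -0.54 ± 0.15 and -0.60 ± 0.15.

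**Figure D2:**
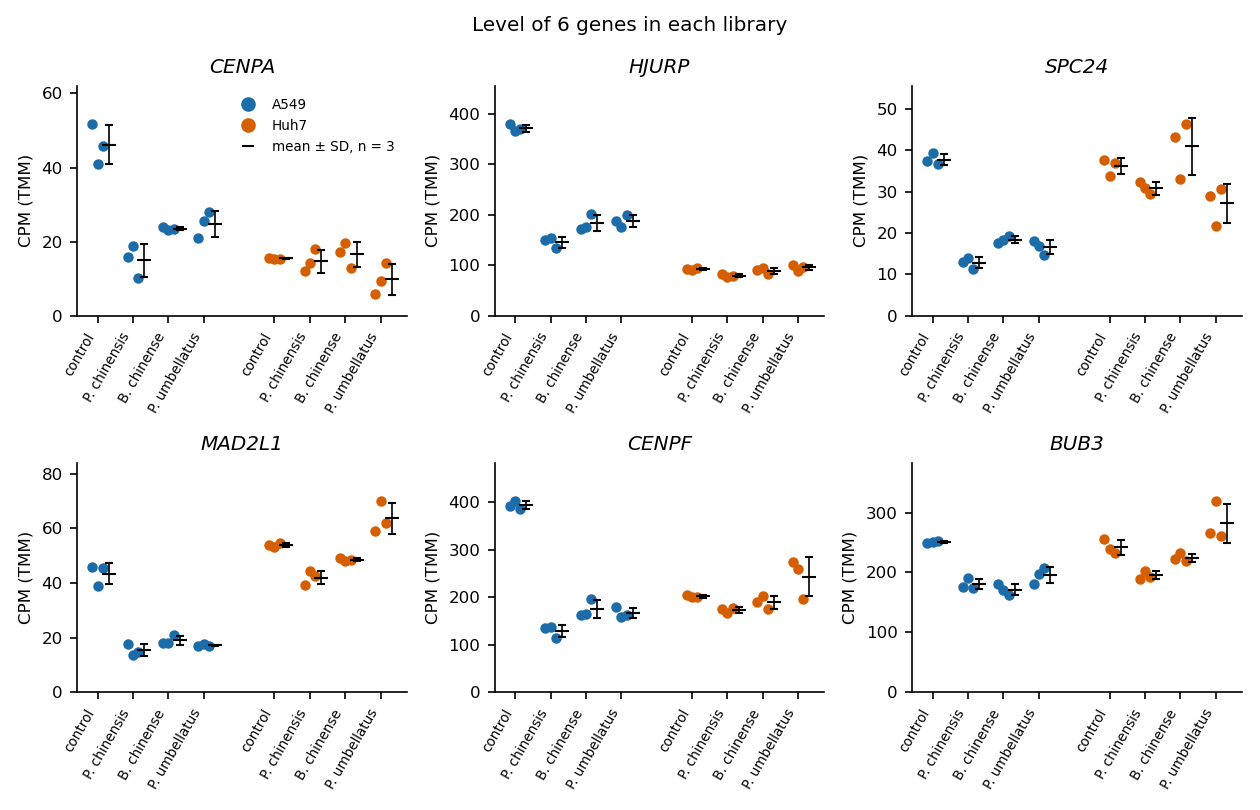
CPM of 6 genes in each library (points, A549 in blue and Huh7 in orange) for control and the 3 extracts, with the group mean and SD (black, n = 3) beside the points. In A549 the treated points of all 6 genes lie below the control points, while in Huh7 the P. chinensis points lie slightly below the control points for all but CENPA.

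All 10 genes of the KMN network fell with each extract in A549, with medians of -1.26, -1.03 and -0.82 for P. chinensis, B. chinense and P. umbellatus. SPC24, a subunit of the NDC80 complex that anchors it to the chromosome side, stood at 37.4, 39.2 and 36.7 in control, 13.1, 13.9 and 11.3 with P. chinensis, 17.6, 18.3 and 19.3 after B. chinense and 18.0, 16.9 and 14.8 after P. umbellatus. KNL1, the scaffold on which checkpoint proteins gather, stood at 129, 109 and 97.7 in control, 50.1, 44.7 and 36.1 with P. chinensis, 52.8, 55.1 and 51.2 after B. chinense and 65.4, 54.3 and 69.1 after P. umbellatus. No treated library of either gene reached the lowest control. The log2 fold change with P. chinensis was -1.55 ± 0.11 (adjusted p = 1.08e-07) for SPC24 and -1.36 ± 0.13 (adjusted p = 1.19e-06) for KNL1, and the microtubule binding subunits NDC80 and NUF2 fell by similar amounts, with -1.27 and -1.33. The MIS12 complex, which bridges CCAN and NDC80, was uneven. DSN1 changed by -1.17 ± 0.11 with P. chinensis, whereas NSL1, PMF1 and MIS12 changed by -0.53 ± 0.06, -0.45 ± 0.10 and -0.30 ± 0.10. All 4 passed the test with each extract. PMF1 shares exons with the readthrough gene PMF1-BGLAP, so that its estimated counts are uncertain.

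The SKA complex holds attached microtubules as they shorten. SKA3 stood at 44.3, 44.9 and 37.7 in control, 14.6, 12.99 and 14.6 with P. chinensis, 13.8, 15.9 and 17.2 after B. chinense and 22.4, 18.1 and 17.7 after P. umbellatus, which gave a log2 fold change of -1.57 ± 0.13 (adjusted p = 3.14e-07) with P. chinensis. SKA2 fell less, with -0.70 ± 0.06, -0.51 ± 0.06 and -0.45 ± 0.06 with the 3 extracts, all past the threshold. SKA1 was noisy, at 29.3, 34.1 and 41.9 in control, 12.4, 21.6 and 22.4 with P. chinensis, 23.6, 3.46 and 15.1 after B. chinense and 22.1, 15.8 and 26.7 after P. umbellatus. Its treated libraries lay below the controls with each extract, but the spread was wide, and only B. chinense passed the test (-1.32 ± 0.42, adjusted p = 0.03), a call that was lost without B. chinense replicate 3 (adjusted p = 0.0595), control replicate 2 (0.0593) or control replicate 3 (0.0922). With P. chinensis the SKA1 value was -0.89 ± 0.40 (adjusted p = 0.11) and with P. umbellatus -0.71 ± 0.40 (adjusted p = 0.214).

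At the corona, CENPF and CENPE fell strongly and ZW10 little. CENPF, a large coiled coil protein that tethers motors to the kinetochore, stood at 392, 403 and 386 in control, 135, 138 and 114 with P. chinensis, 163, 164 and 196 after B. chinense and 179, 158 and 163 after P. umbellatus. CENPE, the kinesin that carries chromosomes towards the spindle equator, stood at 93.1, 90.8 and 79.6 in control, 38.0, 33.8 and 33.3 with P. chinensis, 40.3, 39.9 and 51.3 after B. chinense and 49.3, 44.5 and 46.0 after P. umbellatus. KNTC1, the ROD subunit of the RZZ complex, stood at 177, 178 and 174 in control, 74.6, 76.2 and 66.6 with P. chinensis, 86.3, 71.9 and 85.4 after B. chinense and 80.5, 87.7 and 84.8 after P. umbellatus. In these genes the treated libraries all lay below the controls, and the P. chinensis libraries were the lowest for CENPF and CENPE. The log2 fold change with P. chinensis was -1.61 ± 0.08 (adjusted p = 3.7e-09) for CENPF, -1.32 ± 0.10 (adjusted p = 1.98e-07) for CENPE and -1.28 ± 0.07 (adjusted p = 8.52e-09) for KNTC1. ZW10, the RZZ subunit that also works in membrane traffic outside mitosis, stood at 38.6, 34.3 and 32.4 in control, 24.1, 28.7 and 28.4 with P. chinensis, 28.2, 26.8 and 26.2 after B. chinense and 24.1, 26.9 and 29.1 after P. umbellatus. Its change was -0.37 ± 0.10 (adjusted p = 0.0144) with P. chinensis, -0.37 ± 0.11 (adjusted p = 0.0175) after B. chinense and -0.40 ± 0.10 (adjusted p = 0.0107) after P. umbellatus. These ZW10 calls lay near the threshold and were lost without control replicate 1 with P. chinensis (adjusted p = 0.0639) and with B. chinense (0.0740), without P. chinensis replicate 1 (0.0669), without B. chinense replicate 2 (0.0533) or 3 (0.0509), and without P. umbellatus replicate 1 (0.0563).

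All 4 checkpoint genes fell with each extract in A549. MAD2L1, which encodes MAD2, the protein that forms the inhibitor of the anaphase promoting complex, stood at 45.7, 39.05 and 45.6 in control, 17.8, 13.7 and 14.7 with P. chinensis, 18.2, 18.0 and 20.9 after B. chinense and 16.8, 17.5 and 17.1 after P. umbellatus. BUB1B, which encodes BUBR1, another part of that inhibitor, stood at 117, 100.03 and 101 in control, 40.9, 39.1 and 40.0 with P. chinensis, 44.6, 44.1 and 49.99 after B. chinense and 48.5, 50.8 and 47.4 after P. umbellatus. All treated libraries lay below all controls in both genes, and the log2 fold change with P. chinensis was -1.49 ± 0.12 (adjusted p = 2.31e-07) for MAD2L1 and -1.40 ± 0.08 (adjusted p = 7.26e-09) for BUB1B. TTK, the kinase that starts the checkpoint signal, changed by -1.26 ± 0.12, -1.17 ± 0.12 and -0.98 ± 0.12 with the 3 extracts. BUB3, their binding partner, stood at 249.6, 251 and 252 in control, 176, 191 and 175 with P. chinensis, 181, 170.1 and 163 after B. chinense and 181, 197 and 207 after P. umbellatus. It fell by less than the others but with small spread, with -0.47 ± 0.06 (adjusted p = 1.97e-05) with P. chinensis, -0.55 ± 0.06 after B. chinense and -0.36 ± 0.06 after P. umbellatus. BUB1B shares exons with PAK6 on the same strand.

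CENPJ, which elongates centrioles and is no part of the kinetochore, had the lowest fitted value of the list but rests on few counts. It stood at 12.5, 13.2 and 20.7 in control, 6.67, 0.599 and 0.925 with P. chinensis, 6.62, 4.97 and 7.60 after B. chinense and 7.10, 1.75 and 5.70 after P. umbellatus. The controls lay above all treated libraries, and with P. chinensis replicate 1 was above the others. The log2 fold change was -2.48 ± 0.62 (adjusted p = 0.00635) with P. chinensis, -1.26 ± 0.58 (adjusted p = 0.123) with B. chinense, which did not pass the test, and -1.62 ± 0.57 (adjusted p = 0.0484) with P. umbellatus. The P. umbellatus call was lost without any B. chinense library, any control library or P. umbellatus replicate 2 or 3, with adjusted p from 0.0569 to 0.155.

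The question whether the constitutive inner centromere and the mitotic outer kinetochore moved apart is addressed by counts and medians, with no test of the difference. In A549 the 14 inner centromere genes and the 21 genes of the KMN network, SKA complex, corona and checkpoint had medians of -1.17 and -1.27 with P. chinensis, -0.93 and -1.05 after B. chinense, and -0.88 and -0.91 after P. umbellatus. With P. chinensis, 13 of 14 and 20 of 21 fell, and their ranges overlapped almost wholly, from -1.75 to 0.19 and from -1.61 to -0.30. The members with falls above -0.70 came from several layers, namely MIS12, NSL1 and PMF1 of the MIS12 complex, ZW10 of the corona, BUB3 of the checkpoint, CENPC and CENPP of the CCAN, and MIS18A. In Huh7 the inner and outer medians were -0.09 and -0.23 with P. chinensis, where 3 of 14 and 7 of 21 fell, against 10.5% of all genes. They were -0.07 and -0.04 after B. chinense and 0.12 and 0.24 after P. umbellatus. Against the other extracts in Huh7, P. chinensis was lower for 3 of 14 and 10 of 21, with medians of -0.09 and -0.25, against 12.1% of all genes. These Huh7 counts moved with the setting, as described below.

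Kinetochore genes outside the list were read in the same way, from 25 genes of the chromosomal passenger complex, the shugoshins, kinetochore motors and regulators and the remaining CCAN and checkpoint subunits. Of all genes tested in A549, 17.1% fell with P. chinensis, 15% after B. chinense and 14.8% after P. umbellatus. In the same order 15.8%, 13.1% and 13.4% rose. Of the 25 genes, 21, 20 and 21 fell, again in that order, and 0 rose with any extract. The largest falls with P. chinensis were those of KIF2C, the kinesin that removes microtubules from kinetochores, at 65.6, 65.3 and 73.9 CPM in control and 28.0, 25.9 and 22.1 with P. chinensis (-1.43 ± 0.12), and PLK1, the mitotic kinase, at 259, 244 and 269 and 102, 100.1 and 89.0 (-1.41 ± 0.07). In both genes the groups lay apart.

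P. chinensis was then set against the mean of the other two extracts, a contrast that uses no control library in its estimate. In A549, 9 of 39 members were lower with P. chinensis and 0 higher, against a background of 2.42% of genes lower and 1.15% higher, and the median difference over the members was -0.25. The 9 genes were CENPU (log2 difference -0.96 ± 0.18, adjusted p = 0.0106), CENPA (-0.69 ± 0.16, adjusted p = 0.0294), SPC24 (-0.45 ± 0.10, adjusted p = 0.0252), CENPF (-0.40 ± 0.07, adjusted p = 0.00858), CENPE (-0.37 ± 0.09, adjusted p = 0.0424), HJURP (-0.35 ± 0.06, adjusted p = 0.00708), CENPO (-0.31 ± 0.06, adjusted p = 0.0116), CENPN (-0.30 ± 0.08, adjusted p = 0.0499) and SKA2 (-0.22 ± 0.05, adjusted p = 0.0316). They came from the inner centromere, CENP-A loading, NDC80, SKA and the corona, and none of the 4 checkpoint genes passed the test. The count depended on single libraries. It was 0 without P. chinensis replicate 3, 5 without B. chinense replicate 3 and 5 without P. umbellatus replicate 3, and it was 5 when control libraries were kept out of the fit and 5 with the replicate number as a block. The CENPN call was lost in 13 of the alternative settings, with adjusted p from 0.0506 to 0.16, the CENPE call in 11, and the CENPA call in 7, with adjusted p from 0.0529 to 0.141.

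**Figure D3:**
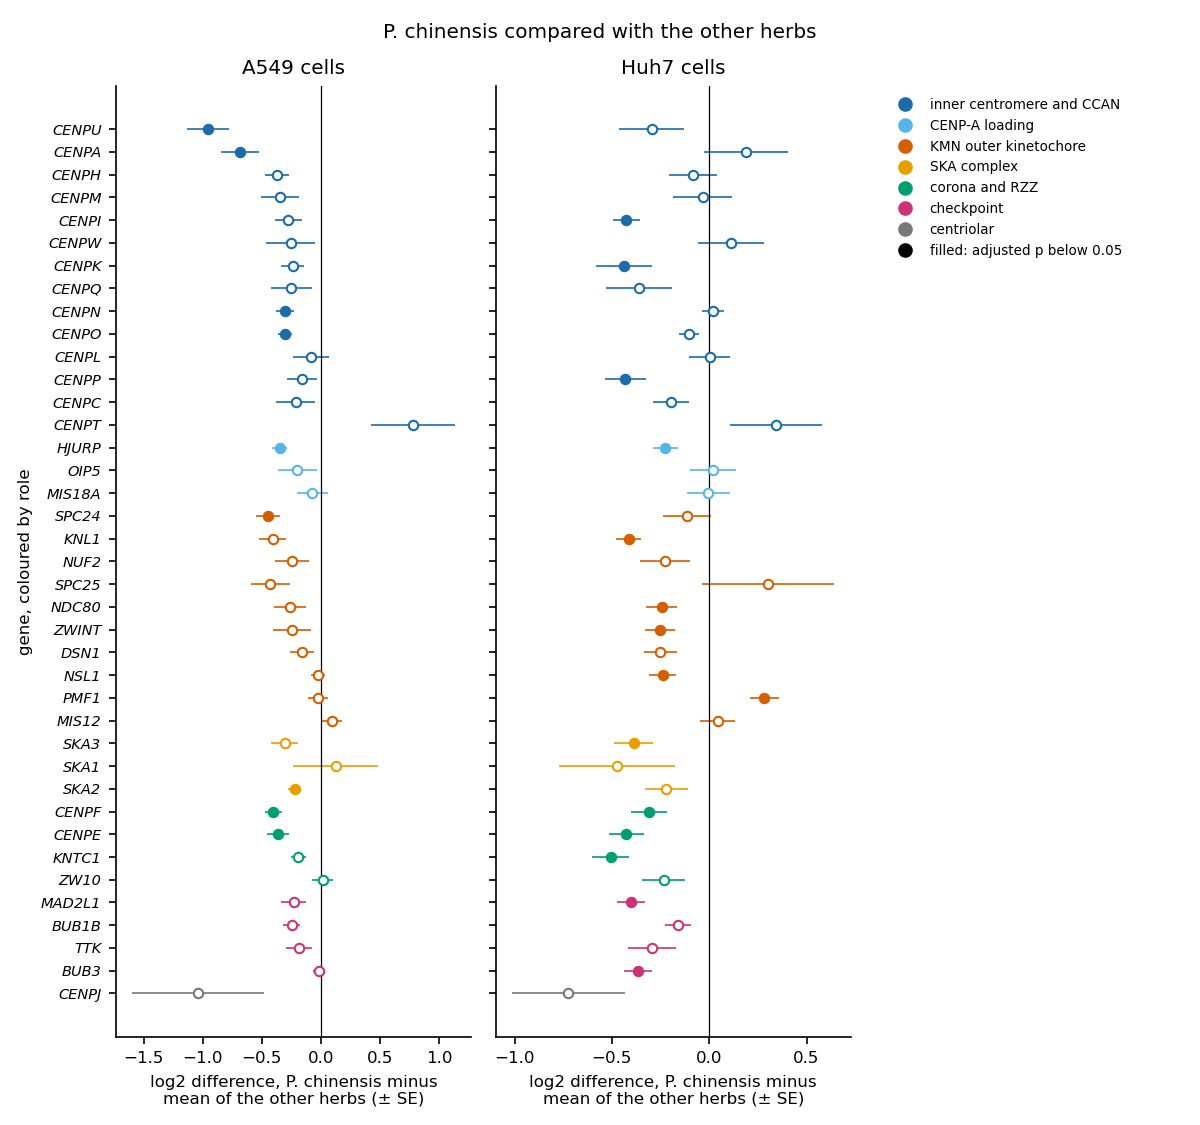
Log2 difference between P. chinensis and the mean of B. chinense and P. umbellatus (x axis, points with SE) for the 39 genes (y axis, coloured by role) in A549 (left) and Huh7 (right), with filled points where the adjusted p was below 0.05. Most points lie left of 0 in both lines, with 9 filled in A549 and 15 in Huh7, of which PMF1 lies to the right.

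In Huh7 cells the same genes moved little with P. chinensis. Their summed level was 2339 to 2366 CPM in the control libraries and 2043 to 2056 with P. chinensis, so that the groups did not overlap but lay close. Of the 39 members 11 fell and 0 rose, against a background of 10.5% of the 13875 genes tested in Huh7 falling and 10.5% rising, and the median log2 fold change was -0.20 against 0.01 over all genes. All P. chinensis libraries lay below all controls for 21 members and above them for 1, against 26.6% and 26.7% of all genes. MAD2L1 stood at 53.8, 53.2 and 54.5 CPM in control and 39.3, 44.3 and 42.5 with P. chinensis, BUB3 at 256, 238 and 232 and 189.8, 203 and 193, and KNTC1 at 123, 127 and 121 and 94.7, 95.7 and 89.5. The groups lay apart in these genes, and the log2 fold changes were -0.36 ± 0.08 (adjusted p = 0.0072), -0.31 ± 0.08 (adjusted p = 0.0163) and -0.41 ± 0.11 (adjusted p = 0.0176). The largest fall was that of CENPM, a CCAN subunit, picked for print after its values were seen, which went from 24.6, 29.5 and 27.9 to 16.5, 14.0 and 15.1 CPM (-0.84 ± 0.17, adjusted p = 0.00372). CENPI, of the CENPH and CENPK subcomplex, changed by -0.43 ± 0.08. The other members that fell were CENPO (-0.20), HJURP (-0.23), KNL1 (-0.22), DSN1 (-0.39), NSL1 (-0.33) and ZWINT (-0.29), the KNL1 partner that recruits the RZZ complex.

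By role, 3 of 14 inner centromere genes, 1 of 3 loading genes, 4 of 10 KMN genes, 0 of 3 SKA genes, 1 of 4 corona genes and 2 of 4 checkpoint genes fell with P. chinensis in Huh7. CENPA stood at 15.7, 15.3 and 15.4 CPM in Huh7 control and 12.002, 14.1 and 18.1 with P. chinensis, which overlap (-0.08 ± 0.24, adjusted p = 0.863). BUB1B stood at 116, 113 and 109 and 112, 112 and 114, with a log2 fold change of -0.003 ± 0.08. The count of 11 was 4 without control replicate 1, 7 without control replicate 2 and 6 without P. chinensis replicate 3. Of the 13875 genes, 957, 1058 and 923 fell in the same order. The count of members was 20 in a fit of the 6 libraries compared, 20 after a correction for GC content and length, 7 with a replicate block and 18 with both the block and the correction. Over all genes 2976, 2872, 1320 and 2781 fell in the same order, against 1451 in the main fit. The count of members was 16 without P. umbellatus replicate 2, where 2536 of the 13875 genes fell, against 1451 with that library. Of the 25 other kinetochore genes, INCENP fell (-0.38 ± 0.11) and 4 rose with P. chinensis in Huh7. These shares of 4% and 16% stood against 10.5% and 10.5% of all genes tested. BIRC5, the survivin subunit of the passenger complex, stood at 160.4, 171 and 167 CPM in control and 189, 198 and 197 with P. chinensis (0.23 ± 0.06, adjusted p = 0.0254), and CDC20, the activator of the anaphase promoting complex, at 199, 196 and 193 and 242, 254 and 243 (0.33 ± 0.10, adjusted p = 0.0331). In A549 both had fallen with P. chinensis, by 1.33 and 1.08 on the log2 scale. KNSTRN, which encodes kinastrin, rose by 0.35 ± 0.11, from 34.5, 35.5 and 34.7 to 41.7, 44.9 and 46.8 CPM, and MAD2L1BP, which encodes the MAD2 partner p31comet, by 0.50 ± 0.11, from 25.4, 26.8 and 24.6 to 34.8, 33.5 and 41.0 CPM.

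With B. chinense in Huh7, none of the 39 members passed edgeR's test in either direction, against a background of 0.757% of genes falling and 0.519% rising. At an unadjusted p below 0.05 there were 2 lower and 1 higher, where 1709 of the 13875 genes had such a p. DESeq2 also called 0 members in each direction, where it called 297 of all genes lower and 218 higher. The calls over all genes depended on P. umbellatus replicate 2, which shares the fit. Without it 547 of the 13875 genes fell and 364 rose, against 105 and 72 with it. Of the members 0 then fell and 1 rose. The summed level was 2204 to 2337 CPM, just below the controls. All B. chinense libraries lay below all controls for 10 members and above them for 1, against 15.4% and 13.7% of all genes. The median log2 fold change was -0.06, with values from -0.27 for CENPM to 0.45 for SKA1. HJURP stood at 90.6, 94.4 and 81.8 CPM and CENPA at 17.2, 19.5 and 12.98, within or close to the range of the controls. None of the 25 other kinetochore genes passed the test either.

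With P. umbellatus in Huh7, 3 members fell and 8 rose, against a background of 17.8% of genes falling and 19.3% rising. The share of members that rose, 20.5%, was close to that of all genes. All P. umbellatus libraries lay below all controls for 5 members and above them for 13, against 23.6% and 24.8% of all genes. The summed level was 2415 to 2906 CPM and the median log2 fold change 0.16. The members that rose were CENPK, ZW10, CENPC, CENPE, BUB1B, KNL1, MAD2L1 and BUB3. BUB1B stood at 116, 113 and 109 CPM in control and 141, 156 and 127 with P. umbellatus, KNL1 at 129, 134 and 131 and 176, 162 and 152, and CENPK at 47.1, 51.2 and 47.9 and 54.5, 97.1 and 62.8. Replicate 2, the library that stands apart, was the highest of its group for CENPK and BUB1B and lay between the others for KNL1. The log2 fold changes were 0.32 ± 0.08 (adjusted p = 0.00727), 0.31 ± 0.07 (adjusted p = 0.00722) and 0.55 ± 0.16 (adjusted p = 0.0223). CENPC rose by 0.35 ± 0.11, from 20.8, 21.3 and 21.4 to 29.4, 26.8 and 24.9 CPM, and ZW10 by 0.38 ± 0.13, from 30.9, 33.7 and 31.9 to 44.8, 45.7 and 35.2 CPM. CENPE, MAD2L1 and BUB3 rose by 0.33 ± 0.10, 0.24 ± 0.08 and 0.22 ± 0.08.

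The 3 genes that fell with P. umbellatus in Huh7 were CENPM, PMF1 and SPC24. CENPM stood at 11.2, 7.35 and 13.2 CPM, below all controls, with a log2 fold change of -1.34 ± 0.18 (adjusted p = 0.000622). PMF1, also picked for print after its values were seen, went from 74.8, 70.6 and 68.6 to 42.4, 35.4 and 43.8 CPM (-0.81 ± 0.09, adjusted p = 0.00027), and SPC24 from 37.6, 33.9 and 36.9 to 29.1, 21.8 and 30.7 CPM (-0.40 ± 0.14, adjusted p = 0.0422). In each of them replicate 2 was the lowest. CENPA also lay below its controls, at 5.98, 9.36 and 14.2 CPM, but did not pass the test (-0.63 ± 0.26, adjusted p = 0.073).

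The changes with P. umbellatus in Huh7 moved with the GC content of the transcript across all genes. Split into 5 groups of equal size from low to high GC content, all genes tested had median log2 fold changes of 0.34, 0.23, 0.08, -0.22 and -0.61, and the members had 0.26, 0.22, -0.03, -0.40 and -0.45. The members are poor in GC, with a median of 41.1% against 47.8% for the genes tested in Huh7, while CENPM, PMF1 and SPC24 have 59.7%, 56.2% and 53.3%. In A549 the medians of all genes with P. umbellatus lay between -0.04 and 0.05 over these groups. When GC content and length were corrected for within libraries, 1 member rose and the median of the members in Huh7 was -0.05. Of the 13875 genes tested, 1577 rose after that correction, against 2674 in the main fit. The count of 8 risen members was 4 and that of 3 fallen members 2 without P. umbellatus replicate 2, where 2309 of all genes rose and 2252 fell. Without P. umbellatus replicate 3 the risen members numbered 15, where 3289 of all genes rose. Without control replicate 1, 2 or 3 the risen members numbered 3, 2 and 2, where 1781, 1480 and 1696 of all genes rose. Without P. chinensis replicate 1 or 2 the risen members numbered 4, where 2020 and 2033 of all genes rose. Without any of the B. chinense libraries they numbered 5, where between 2147 and 2160 of all genes rose. In a fit of the 6 libraries compared, 0 members rose, where 512 of all genes rose. The part of GC content in these changes was not tested beyond that correction.

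**Figure D4:**
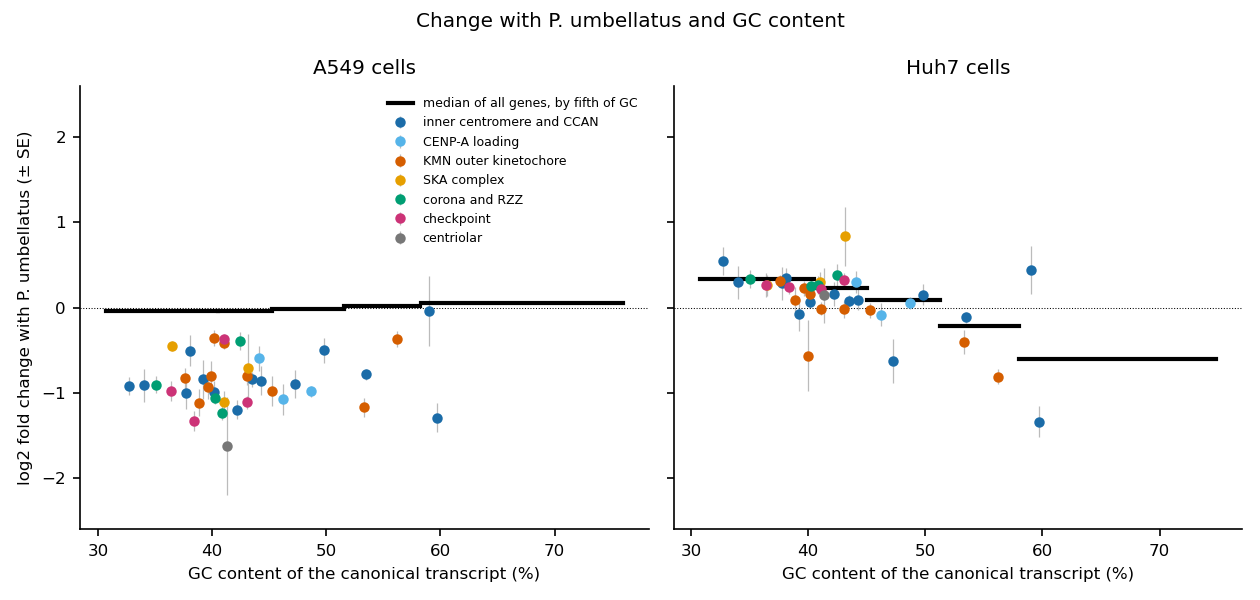
Log2 fold change with P. umbellatus (y axis, points with SE, coloured by role) against the GC content of the canonical transcript in percent (x axis) for the 39 genes in A549 (left) and Huh7 (right), with black bars for the median of all genes tested in each of 5 groups of GC content. In Huh7 the black bars step down from 0.34 to -0.61 and most genes lie near them, while in A549 the bars stay between -0.04 and 0.05 and the genes lie below.

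Among the 25 other genes, 6 fell (24%) and 5 rose (20%) with P. umbellatus in Huh7, against 17.8% and 19.3% of all genes tested. SGO2, a shugoshin that protects centromeric cohesion, rose from 62.8, 63.9 and 57.1 to 85.1, 112 and 83.6 CPM (0.61 ± 0.11). KIF18A, a kinesin that limits microtubule length, stood at 73.6, 114 and 71.4 CPM against 62.9, 61.9 and 63.6 in control (0.45 ± 0.15). KNSTRN and SPAG5, which form the astrin complex at attached kinetochores, rose by 0.32 ± 0.11 and 0.20 ± 0.06. CENPB, which binds alpha satellite DNA, fell most of the 6, with -1.11 ± 0.21. GC content was 34.4% for SGO2, 36.0% for KIF18A, 46.5% for KNSTRN, 49.9% for SPAG5 and 66.5% for CENPB. Its part in these changes was not tested. Replicate 2, the library that stands apart, was the highest of its group for SGO2 and KIF18A.

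Set against the mean of the other extracts in Huh7, P. chinensis had 14 members lower and 1 higher, against 12.1% and 9.69% of all genes, with a median difference of -0.23. The lower members were KNTC1 (-0.51 ± 0.10, adjusted p = 0.00335), CENPI (-0.43 ± 0.07, adjusted p = 0.00137), KNL1 (-0.41 ± 0.06, adjusted p = 0.00107), MAD2L1 (-0.40 ± 0.07, adjusted p = 0.00232) and BUB3 (-0.37 ± 0.07, adjusted p = 0.00391), followed by CENPE, CENPF, CENPK, CENPP, SKA3, HJURP, ZWINT, NDC80 and NSL1, with differences between -0.44 and -0.23. PMF1 was higher (0.28 ± 0.08, adjusted p = 0.0197). This contrast contains the P. umbellatus libraries and the medians of all genes rose over the groups of GC content, from -0.16 to 0.28. The count of 14 was 17 without P. umbellatus replicate 2, 8, 7 and 8 without P. chinensis replicate 1, 2 and 3, 9 without B. chinense replicate 2, and 8 without the control libraries in the fit. Over all genes 2205, 1004, 1025, 798, 1479 and 1081 were lower in the same order, against 1674 in the main fit. PMF1 was not called without P. chinensis replicate 1 or 2, nor after the correction for GC content.

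The difference between the lines was tested itself, as the change in A549 minus the change in Huh7 in a fit of all 24 libraries over the 12924 genes tested in both. With P. chinensis the change was lower in A549 for 29 of 39 members and higher for 0, against 9.3% and 10.3% of all genes, with a median difference of -0.96. With B. chinense it was lower for 25 and higher for 0, against 5.8% and 5.8%, with a median of -0.88. With P. umbellatus it was lower for 31 and higher for 1, PMF1, against 15.3% and 19.1%, with a median of -0.88. This difference also moved with GC content. From low to high GC content, the median difference in 5 groups was -0.32, -0.20, -0.04, 0.28 and 0.72 for all genes. For the members it was -1.10, -0.88, -0.87, -0.58 and -0.14. Leaving out 1 library at a time gave between 26 and 30, between 22 and 31 and between 31 and 32 lower members. Without replicate 2 of Huh7 P. umbellatus they were 30, 31 and 31.

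Role by role, the difference with P. chinensis passed the test for 10 of 14 inner centromere genes, 3 of 3 loading genes, 8 of 10 KMN genes, 2 of 3 SKA genes, 3 of 4 corona genes and 3 of 4 checkpoint genes. CENPU (-1.61 ± 0.28, adjusted p = 0.000232), CENPA (-1.49 ± 0.32, adjusted p = 0.00203), SKA3 (-1.43 ± 0.17, adjusted p = 2.51e-06), BUB1B (-1.35 ± 0.10, adjusted p = 5.89e-09) and CENPF (-1.33 ± 0.14, adjusted p = 4.74e-07) were among those that differed most. BUB3, NSL1, PMF1 and CENPP, which fell little in A549, had differences of -0.11 ± 0.10, -0.14 ± 0.10, -0.17 ± 0.13 and -0.18 ± 0.18 that did not pass. CENPM did not pass with any extract, with -0.60 ± 0.24 (adjusted p = 0.082), -0.69 ± 0.24 (adjusted p = 0.0676) and 0.12 ± 0.26 (adjusted p = 0.743) for P. chinensis, B. chinense and P. umbellatus. CENPA differed between lines with B. chinense (-1.02 ± 0.32, adjusted p = 0.0427), a call lost in 14 of the alternative settings (adjusted p from 0.0507 to 0.111), and did not pass with P. umbellatus (-0.19 ± 0.34, adjusted p = 0.696). MAD2L1 differed with each extract, by -1.08 ± 0.13, -0.998 ± 0.13 and -1.49 ± 0.13, and HJURP by -1.07 ± 0.10, -0.92 ± 0.10 and -0.95 ± 0.10. Of the 25 other genes, the change was lower in A549 for 19 with P. chinensis, 17 after B. chinense and 18 after P. umbellatus. Over all genes it was lower for 9.3%, 5.8% and 15.3%. It was higher for 0, 0 and 2 of the 25 in the same order, against 10.3%, 5.8% and 19.1% of all genes. The 2 were CENPB (1.14 ± 0.23, adjusted p = 0.000894) and MAD1L1, a checkpoint gene (0.55 ± 0.20, adjusted p = 0.0362), named after their values were seen. With a GC content of 66.5% and 62.3%, both lay in the group of highest GC content. All genes of that group had a median difference of 0.72 with P. umbellatus. The part of GC content in these 2 differences was not tested.

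**Figure D5:**
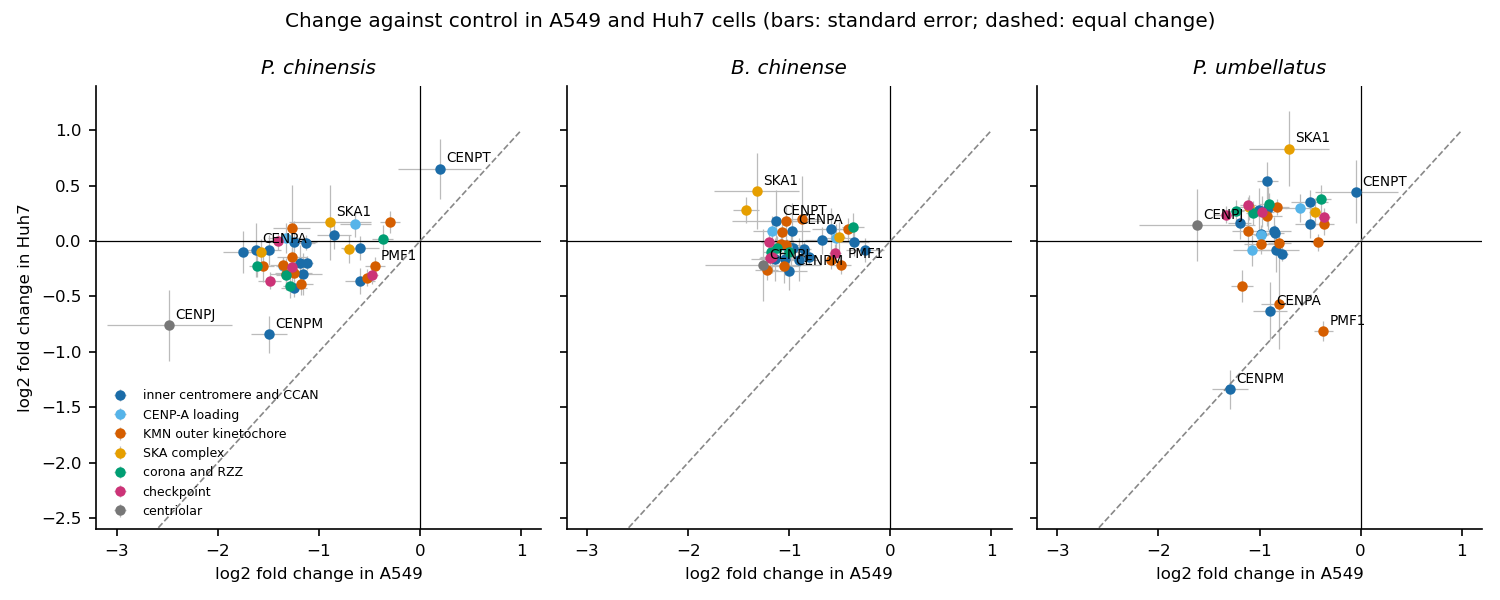
Log2 fold change against control in Huh7 (y axis) against that in A549 (x axis) for the 39 genes with each extract, with points coloured by role, SE bars, and a dashed line of equal change. Nearly all points lie left of 0 and above the dashed line, since the genes fell in A549 and moved less in Huh7. With P. umbellatus, PMF1 lies below the line and CENPM just below it.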

How the data were processed

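The authors sequenced ribosomal RNA depleted, stranded total RNA with paired reads and deposited estimated counts per gene, made with kallisto on Ensembl transcripts of GRCh38. The strand setting and the way transcripts were summed to genes are not given in the sources used here. The estimated counts were rounded to whole numbers. In each line, genes that code for proteins and whose mean over the 12 libraries exceeded 5 counts were tested with edgeR 4.0.16 (R 4.3.3) by the quasi-likelihood test on all 4 groups, with TMM normalization, a prior count of 2 and Benjamini-Hochberg adjustment over all genes. Differences between lines were an interaction term in 1 fit of 24 libraries. A gene was called at an adjusted p below 0.05.

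Alternatives were DESeq2 1.42.0, other size factors, no filter, a mean of at least 50, only the libraries compared, a replicate block, a correction for GC content and length with a spline of 5 degrees of freedom, and leaving out each library. Transcript GC content and length came from GENCODE and promoters from RefSeq. The members and lists were chosen with earlier results of these data known. All 39 members may be named. Values in every library are given for CENPA, for the members of each role with the lowest p with P. chinensis in A549 (2 per role, 1 where a role has under 4), for members called higher in any comparison with control and for members not called with P. chinensis in A549. Of the 25 other genes they are given for those called higher and for the 2 largest falls. Some values that this rule names are not reported here. CENPM and PMF1 were added after their values were seen. Counts rest on library totals of 6803704 to 24345541.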

Additional observations from a re-analysis of the deposited data

Results flagged for a closer look

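The results below differ between A549 and Huh7 by a test of the difference itself, the interaction term of edgeR's quasi-likelihood fit over all 24 libraries. With P. chinensis the change was lower in A549 for 29 of the 39 kinetochore and centromere genes, against 9.3% of all genes. The difference for CENPA was -1.49 on the log2 scale. With B. chinense the change was lower for 25, against 5.8% of all genes. The CENPA difference was -1.02, a call lost in 14 of the alternative settings. With P. umbellatus the change was lower for 31 and higher for 1, against 15.3% and 19.1% of all genes. The higher gene was PMF1, whose difference was 0.52. All differences with P. umbellatus contain the Huh7 P. umbellatus libraries, in which changes moved with GC content. PMF1 was not called after the correction for GC content and length.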

How the results depend on the processing

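Single calls were followed over the alternatives only for the members that the rule above names, without CENPM and PMF1, in 122 calls. Of their 2944 values, 2731 kept their direction and their side of the threshold, 205 fell short of it and 8 reversed. Calls of the other members were followed only through the counts. Of 512 counts of members, 471 stayed within 1.5 times the reported count. In A549, P. chinensis against the other extracts gave 5 lower members with only the libraries compared and 5 with the replicate block (0 to 10 without 1 library). In Huh7, the members that fell with P. chinensis numbered 20 with only the libraries compared, 7 with the replicate block, 20 with the correction for GC content and length and 18 with both (4 to 16 without 1 library), and those that rose 0 to 1 without 1 library. Over all genes tested 2976, 1320, 2872 and 2781 fell in the same order, against 1451 in the main fit. With B. chinense in Huh7, 2 fell under the GC correction and 1 rose with only the libraries compared (0 to 1 without 1 library). In these settings 477 of all genes fell and 399 rose, against 105 and 72 in the main fit. With P. umbellatus in Huh7, 0 rose with only the libraries compared, 1 under the GC correction and 1 with the block and the correction (2 to 15 without 1 library). Over all genes tested 512, 1577 and 1422 rose in the same order, against 2674 in the main fit. The median of the members with P. umbellatus turned from 0.16 to -0.046 under the GC correction and -0.050 with the block as well. Among the members followed singly, the log2 fold changes that reversed under these settings were those of BUB3 (-0.035 under the GC correction and -0.035 with the block as well), CENPE (-0.057 and -0.059), KNL1 (-0.011 and -0.012) and MAD2L1 (-0.066 and -0.067), with adjusted p between 0.515 and 0.941. P. chinensis against the other extracts in Huh7 gave 8 lower members with only the libraries compared (7 to 19 without 1 library), and its 1 higher member was lost (0) there, under the GC correction and with the block and the correction (0 to 1 without 1 library). The higher member of the P. umbellatus line difference, PMF1, was also lost (0) under the GC correction, with and without the block. The correction removes the trend with GC content by construction, and for the other settings the cause was not tested.

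Replicate numbers did not pair the libraries, since correlations of deviations between libraries of the same number lay between -0.07 and 0.07 in A549 and between -0.03 and 0.08 in Huh7, with 0 of 18 above 0.1 in each, and the replicate block changed no count beyond 1.5 times other than those given.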
